A study of Homo sapiens with 12 samples.

Results

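The zinc finger genes of chromosome 19 were taken as the protein-coding genes of that chromosome whose name begins with ZNF and a digit, which gave 249 of the 58735 genes in the table. The table's own family label marked 239 of them as C2H2 zinc finger genes and left 10 without a label, and 3 of the 249 are read-through entries that join neighbouring genes. The study sequenced RNA of established human oesophageal squamous cell carcinoma lines, in 12 libraries. The groups, each of 3 libraries, were KYSE180 cells with raised CDCA7 (CDCA7EXP), native KYSE180 control cells, KYSE150 cells carrying an shRNA that targets CDCA7 (shCDCA7), and native KYSE150 control cells. All were grown in the same medium, the controls are labelled wild type and native rather than as carrying an empty vector or a control hairpin, and the labels give neither the hairpin's sequence nor the number of clones. CDCA7 is a zinc finger protein that works with the remodeller HELLS in keeping DNA methylated, and it averaged 53.9 ± 8.03 FPKM in CDCA7EXP cells and 19.9 ± 3.61 FPKM in KYSE180 controls, and 9.41 ± 0.670 FPKM in shCDCA7 cells and 26.2 ± 1.06 FPKM in KYSE150 controls (SD, n = 3 each). The labels do not say whether replicates are separate cultures, so p-values cover only the scatter among these libraries, part of which may be technical. FPKM is a read number scaled by gene length and library size.

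Genes of this family encode proteins with runs of C2H2 fingers, each a short loop held by a zinc ion that reads a few bases of DNA. Most of the family on chromosome 19 also carry a KRAB domain, which binds TRIM28 and through it SETDB1, HP1 proteins and histone deacetylases, so that the bound site is packed into silent chromatin. The family grew by tandem duplication and lies in clusters, many of its proteins silence transposable elements, and its own genes carry the silencing mark H3K9me3 over their finger exons. Promoters of a number of these genes are described as DNA methylated in carcinomas.

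The 249 members fell into 9 clusters of at least 5 genes when a new cluster was begun at each gap of over 1 Mb between starts, and 11 members lay outside them. From the short-arm end, cluster 1 (2.8 to 2.9 Mb) held 5 members, cluster 2 (7.1 to 9.8 Mb) held 16, cluster 3 (11.5 to 12.6 Mb) held 26 and cluster 4 (19.7 to 24.1 Mb) held 37. On the long arm, cluster 5 (34.7 to 35 Mb) held 5 members, cluster 6 (36.2 to 37.8 Mb) held 26, cluster 7 (43.5 to 45.1 Mb) held 24, cluster 8 (51.6 to 53.6 Mb) held 40 and cluster 9 (55.5 to 58.5 Mb) held 59. Positions are those of the table, which match GENCODE 29 on GRCh38. The annotated proteins held a median of 12 finger matches, with up to 36, and a median length of 589 residues.

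Promoter windows of 8 members are printed here because these genes carry the main contrasts in the data. They run from 250 bases before to 50 after the RefSeq start on GRCh38.p14, 5′ to 3′, with each CG in capitals, since CG is where DNA is methylated. ZNF93 and ZNF880 each open, among members with a window, a run of neighbours near 0 FPKM in both lines. ZNF614 and ZNF615 were seen in KYSE180 only, ZNF430 and ZNF714 in KYSE150 only, and ZNF324B and ZNF132 were lower with each manipulation. The windows lie at chr19:19900696-19900995 (ZNF93, + strand), chr19:52369673-52369972 (ZNF880, +), chr19:52028330-52028629 (ZNF614, -), chr19:52008162-52008461 (ZNF615, -), chr19:21020407-21020706 (ZNF430, +), chr19:21081953-21082252 (ZNF714, +), chr19:58451372-58451671 (ZNF324B, +) and chr19:58440104-58440403 (ZNF132, -). The table's own start of ZNF614 differs from the RefSeq start and lies outside the printed window.
ZNF93: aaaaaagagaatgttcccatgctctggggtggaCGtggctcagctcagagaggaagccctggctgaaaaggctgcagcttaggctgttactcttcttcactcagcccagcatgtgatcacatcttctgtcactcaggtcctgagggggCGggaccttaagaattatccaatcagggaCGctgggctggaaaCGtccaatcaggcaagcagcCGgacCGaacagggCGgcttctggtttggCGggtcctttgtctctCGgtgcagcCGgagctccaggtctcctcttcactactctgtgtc
ZNF880: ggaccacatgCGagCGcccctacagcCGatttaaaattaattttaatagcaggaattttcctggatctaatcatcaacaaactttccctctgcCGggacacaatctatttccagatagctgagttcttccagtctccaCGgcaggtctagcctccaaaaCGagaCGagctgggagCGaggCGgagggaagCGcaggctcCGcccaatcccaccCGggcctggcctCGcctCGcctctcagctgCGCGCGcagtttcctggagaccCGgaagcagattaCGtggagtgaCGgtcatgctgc
ZNF614: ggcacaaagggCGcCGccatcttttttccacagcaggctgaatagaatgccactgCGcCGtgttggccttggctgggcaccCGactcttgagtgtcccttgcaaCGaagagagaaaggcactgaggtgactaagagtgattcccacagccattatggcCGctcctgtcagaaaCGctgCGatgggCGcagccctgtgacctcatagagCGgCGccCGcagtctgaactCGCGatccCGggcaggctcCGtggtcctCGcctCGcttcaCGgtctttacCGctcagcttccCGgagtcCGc
ZNF615: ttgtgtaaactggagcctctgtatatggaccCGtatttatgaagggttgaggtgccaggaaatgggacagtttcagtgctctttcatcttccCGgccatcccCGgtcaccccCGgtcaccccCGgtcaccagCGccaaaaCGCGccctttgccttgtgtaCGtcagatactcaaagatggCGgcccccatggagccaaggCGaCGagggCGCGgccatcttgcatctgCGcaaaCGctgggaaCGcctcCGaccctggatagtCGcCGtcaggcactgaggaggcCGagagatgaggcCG
ZNF430: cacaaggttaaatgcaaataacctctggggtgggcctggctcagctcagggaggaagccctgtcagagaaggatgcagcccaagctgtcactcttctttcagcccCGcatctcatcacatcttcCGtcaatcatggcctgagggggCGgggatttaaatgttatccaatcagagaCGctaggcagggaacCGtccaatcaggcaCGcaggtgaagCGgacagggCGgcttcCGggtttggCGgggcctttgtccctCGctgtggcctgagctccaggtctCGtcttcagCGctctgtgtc
ZNF714: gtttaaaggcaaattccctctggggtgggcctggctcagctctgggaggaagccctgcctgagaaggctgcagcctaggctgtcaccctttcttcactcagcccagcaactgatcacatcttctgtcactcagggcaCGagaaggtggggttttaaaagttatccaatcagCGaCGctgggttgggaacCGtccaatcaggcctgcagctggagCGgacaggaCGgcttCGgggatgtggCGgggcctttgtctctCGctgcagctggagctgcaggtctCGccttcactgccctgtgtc
ZNF324B: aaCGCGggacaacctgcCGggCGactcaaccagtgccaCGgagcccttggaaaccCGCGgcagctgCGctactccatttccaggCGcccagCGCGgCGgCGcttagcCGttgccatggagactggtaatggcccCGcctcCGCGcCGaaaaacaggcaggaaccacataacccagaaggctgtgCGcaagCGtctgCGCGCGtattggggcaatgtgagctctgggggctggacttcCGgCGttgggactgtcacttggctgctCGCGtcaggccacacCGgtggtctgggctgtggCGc
ZNF132: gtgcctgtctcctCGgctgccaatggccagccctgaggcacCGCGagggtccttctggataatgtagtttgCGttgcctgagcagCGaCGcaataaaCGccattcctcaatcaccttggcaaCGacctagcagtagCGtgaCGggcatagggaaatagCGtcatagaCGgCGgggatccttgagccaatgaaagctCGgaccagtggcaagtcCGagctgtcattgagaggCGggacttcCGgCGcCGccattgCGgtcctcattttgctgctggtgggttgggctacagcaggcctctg

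The windows of ZNF93, ZNF714 and ZNF430, all from cluster 4, hold 10, 10 and 13 CGs. Those of ZNF880, ZNF614 and ZNF615 from cluster 8 hold 20, 23 and 22, and those of ZNF132 and ZNF324B from cluster 9 hold 20 and 29. Cluster 4 had the lowest median of the 9 clusters. Its median ratio of CGs observed to those expected from base content was 0.438, against 0.847 in cluster 8, 0.830 in cluster 9 and 0.764 over the 217 members with a window. Over all 27305 RefSeq windows the median ratio was 0.580. Neighbouring promoters of a cluster also shared long words. The 12-base word CTGTCACTCAGG, the most frequent one in cluster 4, was found on either strand in 18 of its 29 windows, ZNF93 and ZNF714 among them, and in 0.136% of all windows. In cluster 9 the most frequent word, GGCGGGACTTCC, was found in 14 of 54 windows, among them that of ZNF132, and in 0.330% of all windows. In clusters 7 and 8 the most frequent words were found in 9 of 20 and 13 of 33 windows, and in 0.0916% and 1.32% of all windows. Each word was chosen as the most frequent in its cluster, so a larger share there follows from the choice. All windows include those of members, which are 24 of the 37 with the word of cluster 4. The words were picked after values were seen. These matches describe the letters of related promoters and locate no binding site.

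Depth lay between 16.3 M and 19.6 M reads a library, and 1 library stood apart. In shCDCA7 replicate 2, 11.2% of reads came from mitochondrial genes, against 5.2% and 5.73% in the other shCDCA7 libraries and 4.09 ± 0.0627% in KYSE150 controls. The correlation of log2(FPKM + 1) across members was 0.932 and 0.938 between that library and the other shCDCA7 libraries, and 0.993 between those other libraries. Results in KYSE150 are therefore also given without it. Mitochondrial reads were also higher in CDCA7EXP cells, at 8.39 ± 0.367%, than in KYSE180 controls, at 5.45 ± 0.837% (SD, n = 3 each), and their part in the results was not tested. Squamous epithelial markers summed to at least 269.5 FPKM in every library, whereas markers of fibroblasts, leukocytes and endothelium each summed to at most 5.5 FPKM. In KYSE150 the squamous sum was mostly KRT5. In KYSE150 controls KRT5 averaged 209.6 FPKM, KRT14 27.6, TP63 24.3, KRT6A 11.7 and SOX2 only 0.121. SOX2 averaged 210.7 ± 82.8 FPKM in KYSE180 controls (SD, n = 3), and the other markers were higher there as well.

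As a family the members were expressed at low levels, and a large share of them gave almost no reads. Counting a member as expressed when it had at least 1 FPKM in every library of a group, 99 of 249 were expressed in CDCA7EXP cells, 100 in KYSE180 controls, 74 in shCDCA7 cells and 97 in KYSE150 controls. In the KYSE150 controls that was 39.0% of members, against 48.2% of the other protein-coding genes of chromosome 19 and 64.9% of ZNF genes on other chromosomes. In shCDCA7 cells it was 29.7%, 44.4% and 55.1% in the same order, so the share was lower in each of these sets. Over all protein-coding genes it was 49.9% in KYSE150 controls and 47.5% in shCDCA7 cells. At 0.5 FPKM, 117 members were expressed in KYSE150 controls and 106 in shCDCA7 cells. Members together took 0.220% of reads in CDCA7EXP cells, 0.242% in KYSE180 controls, 0.167% in shCDCA7 cells and 0.213% in KYSE150 controls. Their FPKM summed to 478.6 ± 13.4 in CDCA7EXP cells, 476.2 ± 17.1 in KYSE180 controls, 374.8 ± 13.9 in shCDCA7 cells and 406.2 ± 2.92 in KYSE150 controls (SD, n = 3 each). In bulk RNA, fewer cells expressing a gene and less RNA per cell cannot be told apart.

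The most abundant member was ZNF146 of cluster 6, a protein made almost wholly of fingers, with 42.8 ± 0.843 FPKM in CDCA7EXP cells, 40.9 ± 3.78 in KYSE180 controls, 32.1 ± 7.99 in shCDCA7 cells and 24.6 ± 0.943 in KYSE150 controls (SD, n = 3 each). Next came ZNF787, ZNF581 and ZNF580 of cluster 9 and ZNF121 of cluster 2, a partner of MYC, with means of 11.8 to 18.7 FPKM over the 12 libraries. ZNF580 and ZNF581 lie on the same strand with exons that overlap, so reads between them may have been split by the counting. In shCDCA7 replicate 2, ZNF787 stood at 7.45 FPKM against 24.7 and 22.9 in the other shCDCA7 libraries, and ZNF121 at 24.9 against 13.0 and 15.3. At the other end, 76 members stayed under 0.1 FPKM in all 12 libraries, and 40 of these had no read in any. That is 30.5% of the family, against 24.6% of all protein-coding genes, 22.6% of the others on chromosome 19 and 11.7% of ZNF genes on other chromosomes. Only 63 members reached 1 FPKM in all 12 libraries.

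**Figure D1:**
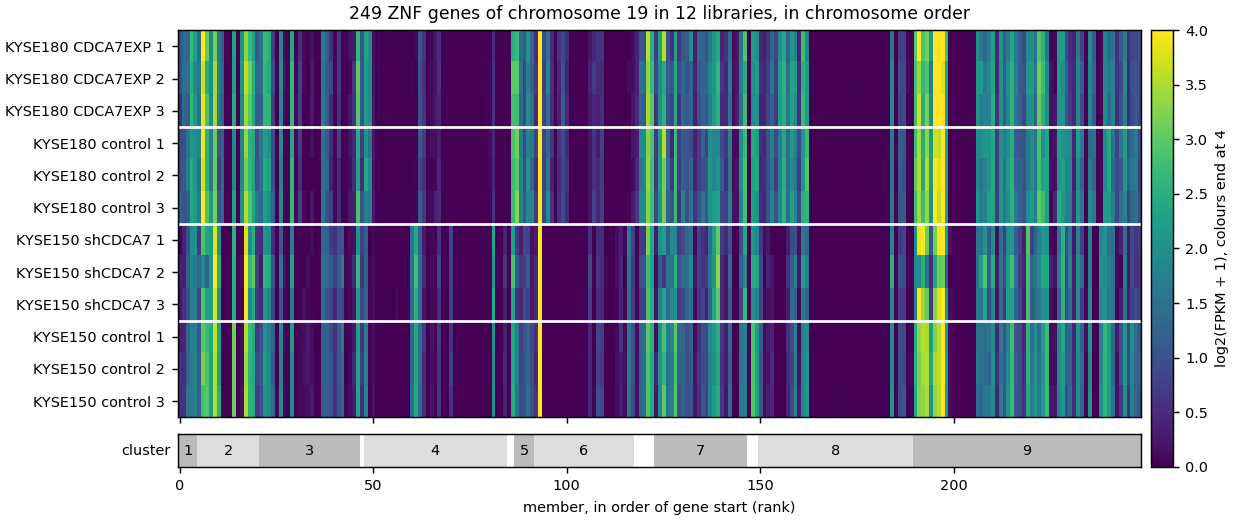
Level of each of the 249 members (columns, in order of gene start) in each of the 12 libraries (rows), as log2(FPKM + 1), with the 9 clusters numbered on the strip beneath and white lines between groups. The wide dark block in cluster 8 is the run of 21 members from ZNF610 to ZNF677, dark in every row, and most of cluster 4 is dark as well, while clusters 7 and 9 are mostly lit.

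The members near 0 FPKM were concentrated in a few clusters. In cluster 4, 24 of 37 members (64.9%) stayed under 0.1 FPKM in all 12 libraries, and in cluster 8 it was 24 of 40 (60.0%). The count was 9 of 26 in cluster 6, 6 of 26 in cluster 3, 3 of 16 in cluster 2 and 8 of 59 in cluster 9. It was 0 of 24 in cluster 7 and 0 of 5 in clusters 1 and 5 each. These are descriptions of one set of neighbouring genes in a pair of lines, with no test.

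The longest block of silent members covered 21 neighbours in cluster 8, from ZNF610 to ZNF677 (chr19:52336245-53254898, 918.7 kb). Those 21 genes gave 13 reads in all over the 12 libraries, 7 of them in KYSE180 and 6 in KYSE150. ZNF83 gave 3 of the 13, and ZNF160, ZNF880 and ZNF677 gave none. The 3 other protein-coding genes inside the block, among them the retroviral envelope genes ERVV-1 and ERVV-2, reached at most 0.0253 FPKM. Of all 26 other genes inside it, 1 reached 1 FPKM in a KYSE150 library, NDUFV2P1, and 0 did so in KYSE180. The nearest members on both sides were active, and any genes of other names between them and the block were not examined. ZNF480, before the block, stood between 2.52 and 6.69 FPKM in KYSE180 libraries and between 1.39 and 3.38 in KYSE150 libraries, and ZNF845, after it, between 1.96 and 2.76 and between 2.60 and 4.86. All 16 members of the block with a promoter window had a CG ratio of at least 0.6, as the window of ZNF880 above shows, whereas 49.0% of all RefSeq windows did. Only 3 of the 21 share over 20% of their 50-base transcript windows with another gene, a mark chosen here. Reads in any shared window may have been dropped or split between copies, and their part in the low counts was not tested.

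Cluster 4 held runs of the same kind with poorer promoters. The 9 neighbours from ZNF253 to ZNF85 (chr19:19865886-20950697) gave 19 reads in the 12 libraries, and 0 of the 8 with a window had a CG ratio of 0.6 or more. Of the 41 other genes between them, 1 reached 1 FPKM in a KYSE150 library, AC078899.1. ZNF93, which silences LINE-1 elements, lies in this run and gave 3 reads. ZNF91, which silences SVA elements, closes a run of 10 members from ZNF676 (chr19:22179091-23395560) and gave 30 reads. In that run 2 of the 5 members with a window had a ratio of at least 0.6, with a median of 0.556. Both genes, like ZNF83, ZNF160, ZNF224, ZNF274, ZNF350, ZNF552, ZNF599 and ZNF792 elsewhere, were picked out after their values were seen. Over the family, 44 of the 61 silent members with a window and 50 of the 58 members expressed in all 12 libraries had a ratio of at least 0.6. Of the 76 silent members, 12 share over 20% of their transcript windows with another gene, against 33 of all 249.

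**Figure D2:**
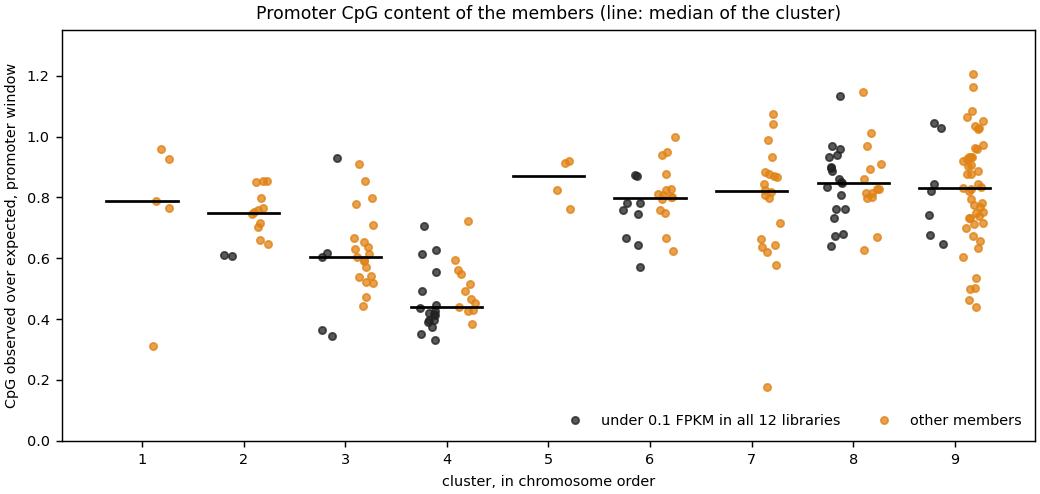
Ratio of CGs observed to expected in the promoter window of each member, by cluster in chromosome order, with members under 0.1 FPKM in all 12 libraries in black, other members in orange and a line at each cluster's median. Most black points of cluster 4 sit below 0.6 and all those of cluster 8 above it.

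Members with promoter methylation described in carcinomas were mostly silent or low in both lines. Of the 8 listed, ZNF382, ZNF677 and ZNF471 gave no read in any library, and ZNF331, an imprinted gene, reached at most 0.0576 FPKM. ZNF582 was listed at 0 in all 6 KYSE180 libraries and reached at most 0.132 FPKM in KYSE150, ZNF154 reached at most 0.307 FPKM and ZNF671 at most 0.359. ZNF132 was the highest of them, and with ZNF154 it was 1 of 2 that could be tested. Methylation was not measured in these libraries.

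The lines differed in which members were silent. In KYSE180, 90 members were under 0.1 FPKM in all 6 libraries, and 14 of these only there. In KYSE150 the counts were 95 and 19. Between them, 10 members were under 0.1 FPKM in every library of 1 line and at 1 FPKM or more in every library of the other, and they are described without a test because these levels chose them.

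Of these 10, 6 were expressed in KYSE180. ZNF614 had 4.27, 5.13 and 4.66 FPKM in CDCA7EXP libraries and 4.41, 4.77 and 4.96 in KYSE180 controls, and its highest value in KYSE150 was 0.0161 FPKM, from a control. ZNF615, its neighbour, had 2.82, 3.73 and 3.67 FPKM in CDCA7EXP libraries and 2.20, 2.37 and 2.45 in KYSE180 controls, and it was listed at 0 in all 6 KYSE150 libraries. The next gene, ZNF350 (ZBRK1), a DNA-binding partner of BRCA1, stood between 0.586 and 1.02 FPKM in KYSE180 libraries and was listed at 0 in all 6 KYSE150 libraries. ZNF350, ZNF615 and ZNF614 therefore form a stretch of 65.9 kb in cluster 8 (chr19:51964343-52030240) with reads in every library of 1 line and near 0 in the other. ZNF14 of cluster 4 had 2.75, 2.86 and 2.83 FPKM in CDCA7EXP libraries and 1.89, 2.79 and 2.06 in KYSE180 controls, and was listed at 0 in KYSE150. ZNF559 of cluster 2 stood between 1.23 and 1.59 FPKM in KYSE180 libraries, ZNF260 of cluster 6 between 1.67 and 2.68, and ZNF606 of cluster 9 between 1.21 and 2.03, and none of the 3 exceeded 0.0306 FPKM in KYSE150. For the members listed at 0 in KYSE150, 3 reads in 1 library would have given between 0.0207 and 0.0743 FPKM, a limit that covers counting error only.

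The other 4 were expressed in KYSE150. ZNF714 had 4.46, 6.01 and 4.80 FPKM in shCDCA7 libraries and 4.21, 4.25 and 4.76 in KYSE150 controls, and at most 0.0462 FPKM in KYSE180. Its neighbour ZNF430 had 1.83, 1.84 and 1.60 FPKM in shCDCA7 libraries and 1.47, 1.53 and 1.74 in KYSE150 controls, and at most 0.0371 FPKM in KYSE180. These are the last 2 of a run of 11 members of cluster 4, from ZNF253 to ZNF714, that were near 0 in KYSE180, and the other 9 were near 0 in KYSE150 as well. ZNF607 of cluster 6 stood between 1.82 and 2.13 FPKM in KYSE150 libraries, and ZNF329 of cluster 9 between 2.31 and 3.24. In KYSE180, ZNF607 reached 0.0942 FPKM and ZNF329 was listed at 0 in every library. In cluster 6, 12 neighbours from ZNF566 to ZNF420 (chr19:36445119-37130314) were near 0 in KYSE150, and 6 of them also in KYSE180.

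**Figure D3:**
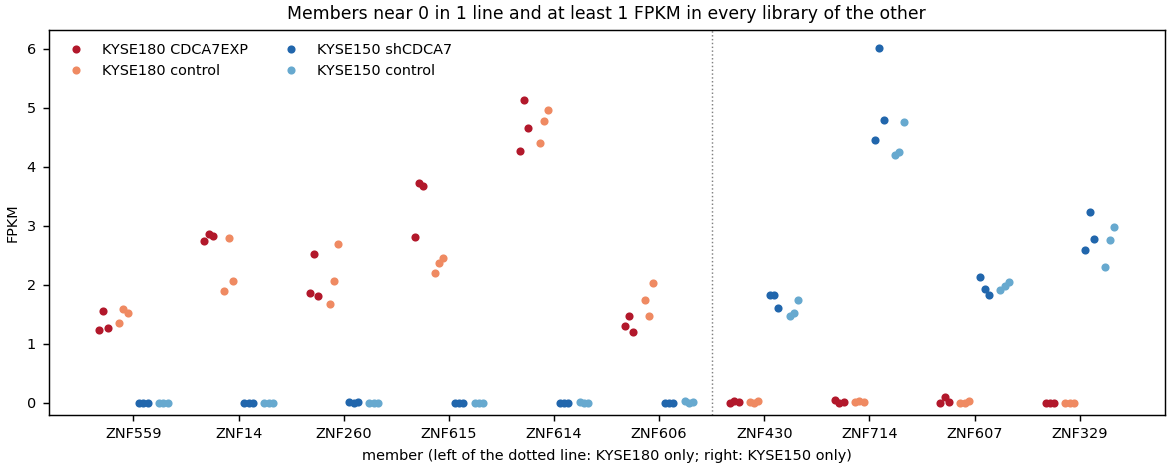
FPKM of the 10 members seen in 1 line only, with 1 point per library and, for each member, the groups from left to right CDCA7EXP, KYSE180 control, shCDCA7 and KYSE150 control. In each member the points of both groups of 1 line lie near 0 and those of the other line at 1.21 FPKM or above, which is how these members were chosen.

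Changing CDCA7 switched none of the silent members on. Of the 91 members under 0.1 FPKM in all KYSE180 controls, 0 reached 1 FPKM, or 0.5 FPKM, in every CDCA7EXP library, and the highest value was 0.129 FPKM, in ZNF439. Of the 96 under 0.1 FPKM in all KYSE150 controls, 0 did so in shCDCA7 libraries, and the highest value was 0.140 FPKM, again in ZNF439. In the other direction, 0 of the 100 members expressed in KYSE180 controls and 0 of the 97 in KYSE150 controls fell under 0.1 FPKM in all manipulated libraries. Of all protein-coding genes near 0 in the controls of their line, 0 of 5741 reached 1 FPKM in CDCA7EXP libraries and 1 of 7349 in shCDCA7 libraries.

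With CDCA7 raised in KYSE180, most tested members were not called as changed, which does not show that their levels stayed the same. Of the 157 members with enough reads to be tested, limma-trend on log2(FPKM + 1) called 2 higher and 9 lower at a Benjamini-Hochberg adjusted p under 0.05, against 9.08% of all 15944 genes tested called in either direction (4.65% higher and 4.43% lower). The median log2 change was -0.01 for members and 0.00 for all tested genes. The share of members called is thus close to that of all genes. Groups did not overlap for 13 members that were higher and 32 that were lower in CDCA7EXP cells, and for 17.7% and 17.4% of all genes in the same directions, 35.1% together. The calls rest on few libraries. Leaving out 1 library gave between 0 and 16 called members, while the share of all genes called ran from 0.00635% to 15%, and no member was called without CDCA7EXP replicate 1 or replicate 3 or without a filter on low reads.

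The 2 members that rose were ZNF581 and ZNF699. ZNF581 had 26.3, 15.7 and 20.1 FPKM in CDCA7EXP libraries and 11.0, 12.7 and 11.1 in KYSE180 controls, a log2 change of 0.76 (SE 0.18, limma adjusted p = 0.043). ZNF699 of cluster 2 had 1.93, 2.29 and 1.95 FPKM in CDCA7EXP libraries and 1.04, 0.713 and 1.18 in the controls. The groups did not overlap for either gene. Of the 9 that fell, 6 lie in cluster 9, which holds 48 of the 157 tested members. Those 6 are 12.5% of its tested members, against 5.73% lower over all tested members and 4.43% over all genes. The largest change was in ZNF587B, with 0.466, 0.522 and 0.644 FPKM in CDCA7EXP libraries and 2.70, 2.46 and 2.24 in the controls, a log2 change of -1.16 (SE 0.11, limma adjusted p = 0.0071). ZNF587B shares 20.5% of its transcript windows with other genes, so its level is uncertain. Its neighbour ZNF552 averaged 1.15 ± 0.177 FPKM in CDCA7EXP cells and 2.67 ± 0.416 in KYSE180 controls, and ZNF235 of cluster 7 averaged 0.392 ± 0.0879 and 1.0 ± 0.247 FPKM in the same groups (SD, n = 3 each). ZNF235 overlaps ZNF227 on the opposite strand over 23.3% of its exonic bases, and reads from the pair cannot be told apart without strand.

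Lowering CDCA7 in KYSE150 was accompanied by lower levels of a part of the family. Of 145 members tested, 33 were called lower and 3 higher, against 19.9% of all 14342 genes tested called in either direction (10.0% higher and 9.86% lower). The median log2 change was -0.13 for the members and 0.00 for all tested genes. ZNF genes of other chromosomes behaved alike in number, with 42 of 209 lower, 15 higher and a median of -0.13, and the other protein-coding genes of chromosome 19 had 91 of 716 lower, 29 higher and a median of -0.11. Without shCDCA7 replicate 2 the median of these other genes turned to 0.02, with 185 lower and 223 higher of 713, while it was -0.13 for members and -0.17 for ZNF genes elsewhere. Groups did not overlap for 55 members that were lower and 19 that were higher in shCDCA7 cells, and for 22.5% and 25.3% of all genes in the same directions, 47.8% together. Of the 145 members, 4 had passed the filter on low reads through 1 group alone. The filter itself favoured a difference in these 4, and any calls of them are not independent of it.

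Without shCDCA7 replicate 2, 63 members were lower and 14 higher of 145, at a background of 55.9% of all genes called (29.5% higher and 26.4% lower). All 36 members called with the full set were among them. Without KYSE150 control replicate 1, 2 or 3, 4, 3 and 5 members were called, against 3.85%, 2.93% and 4.91% of all genes. Without shCDCA7 replicate 1 or 3, 21 and 20 members were called, against 12.4% and 10.8% of all genes, so calls were lost over all genes as well. GC content of a gene's longest transcript is lower over members (median 42.2%) than over all protein-coding genes (49.1%). Removing each library's trend with it gave 48 members lower and 4 higher, against 13.1% of all genes lower and 13.5% higher. The median change of members was then -0.24. It was -0.16 for ZNF genes elsewhere and 0.05 for the other genes of chromosome 19. Scaling by total reads shifted the median of all genes to -0.16 and that of the members to -0.26, a shift common to all genes of a library. It gave 53 members lower and 3 higher, against 21.0% of all genes lower and 5.41% higher.

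The largest fall was in ZNF784 of cluster 9 (chr19:55620742-55624601), with 1.08, 0.391 and 0.580 FPKM in shCDCA7 libraries and 3.54, 4.37 and 3.09 in KYSE150 controls, a log2 change of -1.48 (SE 0.18, limma adjusted p = 0.0054). ZNF302 of cluster 5 had 0.578, 1.12 and 0.452 FPKM in shCDCA7 libraries and 2.31, 2.28 and 1.82 in the controls. ZNF45 of cluster 7 had 2.42, 5.04 and 3.15 FPKM in shCDCA7 libraries and 7.07, 6.35 and 6.86 in the controls. The groups do not overlap in any of these genes, although shCDCA7 replicate 2 is the highest of its group in ZNF302 and ZNF45. ZNF274, a KRAB protein that brings SETDB1 to the 3′ ends of ZNF genes themselves, averaged 3.08 ± 0.206 FPKM in shCDCA7 cells and 5.19 ± 0.0833 in KYSE150 controls (SD, n = 3 each), a log2 change of -0.60 (limma adjusted p = 0.011). ZNF224, a repressor of the aldolase A gene, averaged 0.574 ± 0.152 FPKM and 1.02 ± 0.114 in the same groups and was called lower, with 48.3% of its transcript windows shared with other genes.

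Cluster 5 stood out by its share of calls, with 4 of 5 members lower. Besides ZNF302, ZNF792 had 0.149, 0.155 and 0.215 FPKM in shCDCA7 libraries and 0.806, 0.887 and 0.968 in KYSE150 controls. ZNF30 had 0.760, 1.22 and 0.705 FPKM in shCDCA7 libraries and 1.46, 1.61 and 1.84 in the controls, and ZNF181 had 0.252, 0.513 and 0.327 against 0.619, 0.747 and 0.902. The fifth member, ZNF599, had 0.884, 0.634 and 0.971 FPKM against 0.997, 1.03 and 1.01 and was not called. In cluster 9, 14 of 47 tested members were lower and 1 higher, and the median change was below 0 in 8 of the 9 clusters, cluster 4 being the exception at 0.03. Without shCDCA7 replicate 2 the medians were -0.60 in cluster 5, -0.15 in cluster 9, -0.04 in cluster 4 and 0.01 in cluster 1.

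The 3 members that rose in KYSE150 were ZNF460, ZNF227 and ZNF230. ZNF460 of cluster 9 had 3.28, 6.36 and 4.30 FPKM in shCDCA7 libraries and 1.77, 1.72 and 2.07 in KYSE150 controls, a log2 change of 0.95 (SE 0.20, limma adjusted p = 0.024). ZNF227 had 7.10, 8.95 and 6.78 FPKM in shCDCA7 libraries and 4.68, 4.41 and 4.75 in the controls, and ZNF230 had 1.55, 1.67 and 1.55 against 0.891, 0.947 and 0.969. Both of these lie in cluster 7, beside members of it that fell. The shared transcript windows of ZNF227, at 21.5%, and its overlap with ZNF235 on the opposite strand leave its level uncertain.

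**Figure D4:**
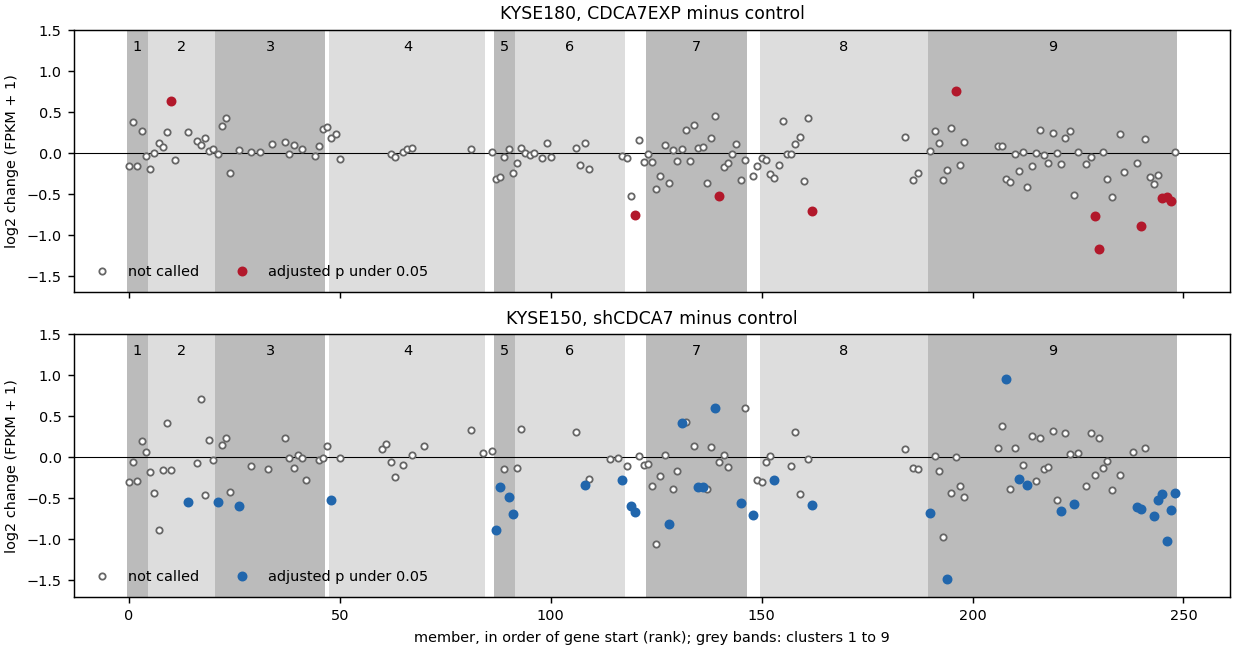
Change of each tested member in log2(FPKM + 1), by order of gene start, for CDCA7EXP minus control in KYSE180 (upper panel) and shCDCA7 minus control in KYSE150 (lower panel), with grey bands for the numbered clusters, filled points for adjusted p under 0.05 and open points for the rest. Of the filled points, 9 of 11 lie below 0 in the upper panel and 33 of 36 in the lower one.

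A few members were called lower in both lines, although CDCA7 moved in opposite directions. Of 135 members tested in both lines, 6 were lower in both, 0 were higher in both and 0 were called in opposite directions, against 1.46%, 1.61% and 0.172% of all 13377 genes tested in both. The 6 make up 66.7% of the 9 members lower in KYSE180 and 18.2% of the 33 lower in KYSE150, against 36.0% and 14.9% of the genes lower in each line over all genes. The comparisons share no library. Across members the log2 changes in the lines correlated at 0.41, and across all genes at 0.39, and neighbouring genes are not independent points.

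The 6 were ZNF780A, ZNF480, ZNF544, ZNF132, ZNF324B and ZNF324, of which the last 4 lie near the end of cluster 9 (chr19:58228594-58475436). ZNF324B (chr19:58451604-58457833) had 0.765, 0.994 and 0.819 FPKM in CDCA7EXP libraries and 1.58, 1.89 and 1.58 in KYSE180 controls, and 0.829, 0.832 and 0.675 in shCDCA7 libraries and 2.91, 2.55 and 2.35 in KYSE150 controls. Its log2 changes were -0.53 in KYSE180 (limma adjusted p = 0.032) and -1.02 in KYSE150 (limma adjusted p = 0.003). ZNF132 (chr19:58432814-58440222), of the methylation list, had 0.403, 0.332 and 0.369 FPKM in CDCA7EXP libraries and 1.06, 1.25 and 0.705 in KYSE180 controls. In KYSE150 it had 0.197, 0.186 and 0.290 FPKM in shCDCA7 libraries and 0.702, 0.802 and 0.525 in the controls. The groups do not overlap in either line for either gene, and their promoter windows, with 29 and 20 CGs, are printed above. ZNF544 averaged 1.79 ± 0.255 FPKM in CDCA7EXP cells and 4.17 ± 0.333 in KYSE180 controls, and 2.04 ± 0.210 in shCDCA7 cells and 3.72 ± 0.126 in KYSE150 controls (SD, n = 3 each). ZNF324 averaged 1.03 ± 0.172 FPKM in CDCA7EXP cells and 2.05 ± 0.184 in KYSE180 controls, and 0.661 ± 0.237 in shCDCA7 cells and 1.57 ± 0.110 in KYSE150 controls. ZNF324 shares 34.2% of its transcript windows with other genes. Exons of other genes, chiefly ZNF446 on the same strand, cover 25.1% of its exonic bases, so its level is uncertain. ZNF324B, 5′ of it on the same strand, has no exonic base in exons of other genes.

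ZNF480 is the nearest member before the silent block of cluster 8. It averaged 3.23 ± 0.612 FPKM in CDCA7EXP cells and 5.84 ± 0.751 in KYSE180 controls. In KYSE150 it averaged 1.81 ± 0.519 FPKM in shCDCA7 cells and 3.17 ± 0.245 in controls (SD, n = 3 each). ZNF780A, outside the clusters (chr19:40069152-40090938), averaged 1.23 ± 0.284 FPKM in CDCA7EXP cells and 2.76 ± 0.244 in KYSE180 controls, and 0.739 ± 0.231 in shCDCA7 cells and 1.73 ± 0.0355 in KYSE150 controls. Its adjacent paralogue ZNF780B averaged 0.738 ± 0.171 FPKM in shCDCA7 cells and 1.60 ± 0.0543 in KYSE150 controls and was called lower there. In KYSE180, ZNF780B had 1.14, 1.97 and 1.34 FPKM with CDCA7EXP and 2.87, 2.0 and 2.78 in the controls and was not called.

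**Figure D5:**
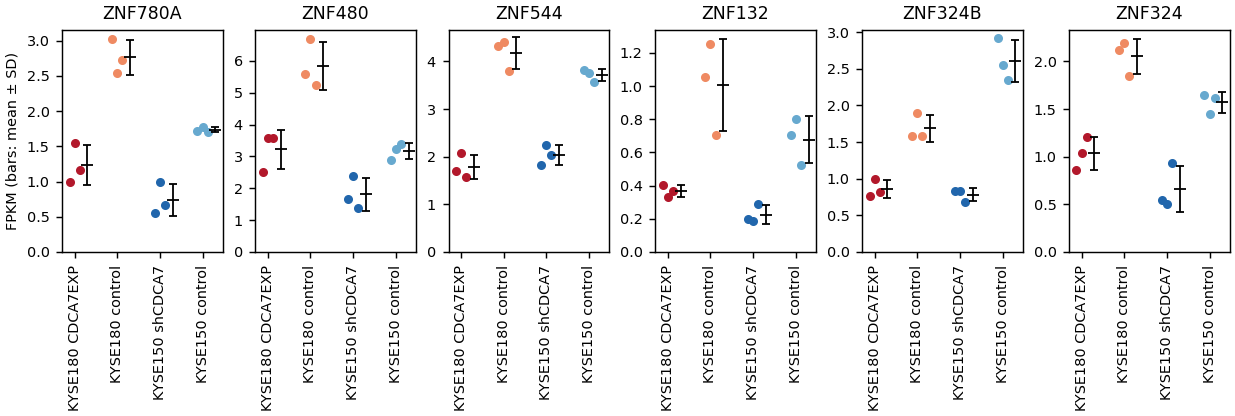
FPKM of the 6 members called lower in both lines, with 1 point per library and bars for the mean ± SD of 3 libraries, in the order CDCA7EXP, KYSE180 control, shCDCA7 and KYSE150 control. In each panel the manipulated libraries lie below the controls of their own line without overlap.

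More members were called between the native lines than within either line. Of 167 members tested between KYSE180 controls and KYSE150 controls, 69 were higher and 34 lower in KYSE180, against 58.0% of all 17088 genes called in either direction (33.4% higher and 24.6% lower). The median difference was 0.20 for members and 0.07 for all genes, and ZNF genes elsewhere had 96 higher and 44 lower of 227. Through 1 group alone, 28 members had passed the filter on low reads, so the filter itself favoured a difference in these, and their calls are not independent of it. Groups did not overlap for 83 members that were higher and 39 that were lower in KYSE180, and for 39.4% and 31.8% of all genes in the same directions, 71.3% together. In cluster 8, 10 of 16 tested members were higher in KYSE180 and 1 lower, with a median of 0.67, and in cluster 4, 2 were higher and 6 lower of 13, with a median of -0.19. Within KYSE180 and KYSE150, 16 and 12 members of cluster 8 passed the filter, and 9 and 11 of cluster 4. These counts and medians therefore include members that did not pass in both lines, for which the filter favoured a difference.

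ZNF302 averaged 7.88 ± 0.885 FPKM in KYSE180 controls and 2.14 ± 0.276 in KYSE150 controls, a log2 difference of 1.5 (SE 0.16). ZNF134 of cluster 9 averaged 6.34 ± 0.661 FPKM in KYSE180 controls and 1.83 ± 0.239 in KYSE150 controls, and ZNF426 of cluster 2 averaged 2.68 ± 0.317 and 0.103 ± 0.0227. In the other direction, ZNF675, an inhibitor of TRAF6 signalling, averaged 0.396 ± 0.0858 FPKM in KYSE180 controls and 3.05 ± 0.208 in KYSE150 controls, and ZNF699 averaged 0.978 ± 0.239 and 4.13 ± 0.558. ZNF443 of cluster 3 passed the filter on low reads through KYSE150 alone, which favoured a difference. It was listed at 0 in all 3 KYSE180 controls and had 2.07, 1.59 and 1.65 FPKM in KYSE150 controls, with 40.2% of its transcript windows shared. ZNF175, which binds the HIV-1 promoter, averaged 0.420 ± 0.0543 and 1.14 ± 0.0484 FPKM in the same groups. These genes were all called. The comparison uses the same control libraries as those within each line, so their values are set side by side and not combined.

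The responses of the lines were also compared directly, as the change in KYSE180 minus the change in KYSE150. The line and the manipulation differ together in this comparison, so their effects cannot be told apart. Of 167 members tested, 4 had a positive and 2 a negative difference past the threshold, against 5.57% of all genes (2.87% positive and 2.70% negative). Without shCDCA7 replicate 2 these counts were 15 and 3, against 9.03% of all genes (4.74% positive and 4.29% negative). The 2 negative members were ZNF587B and ZNF460, and the 4 positive ones were ZNF784, ZNF266, ZNF628 and ZNF383.

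Neighbouring members of a cluster shared the sign of their change about as often as neighbouring genes do in general. The change had the same sign in 71 of 139 neighbouring pairs in KYSE180, which is 51.1% against 53.5% over all neighbouring protein-coding genes. In KYSE150 it was 68 of 127 pairs, or 53.5% against 56.2%, and between the controls 91 of 149 pairs, or 61.1% against 59.7%.

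Partners through which KRAB zinc finger proteins act, and genes around CDCA7 and DNA methylation, are given beside the shares of all genes called, which were 9.08% in KYSE180 and 19.9% in KYSE150. Of 15 KRAB partners, all tested, CDCA7EXP cells had 0 higher and 2 lower (HDAC1 and MPHOSPH8), with a median of -0.03. In shCDCA7 cells 1 was higher, the HP1 gene CBX1, and 2 were lower, MORC2 and TRIM28, with a median of -0.01. TRIM28, the corepressor itself, averaged 116 ± 9.08 FPKM in shCDCA7 cells and 169 ± 7.98 in KYSE150 controls (SD, n = 3 each), a log2 change of -0.53 (limma adjusted p = 0.015). Of the 16 methylation genes, CDCA7EXP cells had 2 higher, CDCA7 and MBD2, and 1 lower, HELLS. CDCA7 is the gene that was manipulated, so its calls follow from the design, and it is included in each count for this list. HELLS averaged 3.97 ± 0.355 FPKM in CDCA7EXP cells and 6.02 ± 0.401 in KYSE180 controls. In shCDCA7 cells UHRF2 was higher and CDCA7, DNMT1 and UHRF1 were lower. DNMT1, the maintenance methyltransferase, averaged 21.4 ± 1.2 FPKM in shCDCA7 cells and 30.5 ± 1.11 in KYSE150 controls, and its guide UHRF1 averaged 13.3 ± 0.711 and 27.8 ± 0.554 (SD, n = 3 each). Without shCDCA7 replicate 2, 5 of the 15 partners were higher and 6 lower in shCDCA7 cells, and 3 of the 16 methylation genes were higher and 8 lower, against 55.9% of all genes called. Whether these levels bear on those of the members was not tested.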

How the data were processed

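RNA sequencing of 12 libraries was analysed from the deposited table of FPKM values, one per gene and library. The values match reads scaled by gene length and by an effective library size proportional to a median-of-ratios factor, and whole reads could be recovered for 100.0% of values (tolerance 0.01). The submitters' processing notes name HISAT2 2.0.5, DESeq2 1.20.0 and the mouse build mm10, whereas IDs and positions of all 58735 rows match GENCODE 29 on the human genome. The counting tool and its use of strand are not given in the sources used here.

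Groups came from the labels. Each comparison was fitted over all genes with limma-trend 3.58.1 (R 4.3.3) on log2(FPKM + 1), a scale that understates changes of low genes, after keeping genes with at least 10 reads in at least 3 libraries and at least 15 in all. Calls used a Benjamini-Hochberg adjusted p of 0.05. Alternatives were a pseudocount of 0.1, other filters, TMM or total-read scaling, limma-voom on the recovered reads (14, 34 and 103 called members in KYSE180, KYSE150 and between the controls), removal of GC trends, a replicate block, 1 fit of all libraries and leaving out each library.

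Named genes were, per comparison and cluster, up to 2 called members per direction by size with groups that do not overlap and at least 1 FPKM in the higher group; members called in both lines; members seen in 1 line only; the 5 most abundant; the methylation list; up to 5 members with differing responses; and CDCA7 with the called genes of the lists. Members and lists were chosen with earlier results of these data known. Fingers, promoter CGs and shared 50-base windows were computed from RefSeq and GENCODE sequences with Python 3.11.15. Floors of 3 reads cover counting error only.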

Additional observations from a re-analysis of the deposited data

Results flagged for a closer look

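For 6 of 167 tested members, the change with CDCA7EXP in KYSE180 differed from the change with shCDCA7 in KYSE150 in a test of the difference itself, against 5.57% of all 17088 genes. Each value is the change in KYSE180 minus the change in KYSE150, in log2(FPKM + 1). Line and manipulation differ together here and cannot be told apart.

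ZNF587B had 0.466, 0.522 and 0.644 FPKM in CDCA7EXP libraries and 2.70, 2.46 and 2.24 in KYSE180 controls, and 1.99, 2.40 and 1.78 in shCDCA7 libraries and 1.65, 1.41 and 1.69 in KYSE150 controls. It was lower in CDCA7EXP cells, and the difference was -1.40 (SE 0.15, limma adjusted p = 0.0013), called in 19 of 19 alternatives. ZNF784 had 3.55, 2.11 and 2.72 FPKM in CDCA7EXP libraries and 3.51, 3.48 and 2.98 in KYSE180 controls, and its fall in shCDCA7 cells is described above. Its difference was 1.28 (SE 0.26, limma adjusted p = 0.018), called in 17 of 19 alternatives. ZNF460 had 1.52, 2.18 and 2.43 FPKM in CDCA7EXP libraries and 3.32, 2.55 and 2.46 in KYSE180 controls, against higher levels in shCDCA7 cells than in KYSE150 controls. Its difference was -1.27 (SE 0.27, limma adjusted p = 0.024), called in 12 of 19 alternatives.

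ZNF266 had 3.97, 3.71 and 4.5 FPKM in CDCA7EXP libraries and 2.81, 2.99 and 3.93 in KYSE180 controls, and 5.00, 4.71 and 4.68 in shCDCA7 libraries and 7.65, 7.40 and 7.40 in KYSE150 controls. The difference was 0.81 (SE 0.17, limma adjusted p = 0.022), called in 13 of 19 alternatives. ZNF628 had 6.74, 6.24 and 5.89 FPKM in CDCA7EXP libraries and 5.77, 6.97 and 5.83 in KYSE180 controls, and 2.92, 2.62 and 2.10 in shCDCA7 libraries and 4.55, 5.00 and 4.47 in KYSE150 controls, with a difference of 0.71 (SE 0.17, limma adjusted p = 0.038), called in 9 of 19. ZNF383 had 0.529, 0.444 and 0.303 FPKM in CDCA7EXP libraries and 0.228, 0.358 and 0.325 in KYSE180 controls, and 0.443, 0.556 and 0.433 in shCDCA7 libraries and 0.827, 0.758 and 1.02 in KYSE150 controls, with a difference of 0.46 (SE 0.12, limma adjusted p = 0.041), called in 7 of 18. Without shCDCA7 replicate 2, 18 members were called for the difference, against 9.03% of all genes.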

How the results depend on the processing

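The number of members called with CDCA7EXP in KYSE180, 11, became 0 with no filter on low reads, 24 in 1 fit of all 12 libraries and 3 with the replicate block, and ran from 0 to 16 when 1 library was left out. It was 0 without CDCA7EXP replicate 1 or 3, 2 without CDCA7EXP replicate 2, 1 without control replicate 1, 16 without control replicate 2 and 13 without control replicate 3. The number called with shCDCA7 in KYSE150, 36, became 9 with no filter, 22 with a mean of at least 1 FPKM, 56 with total-read scaling and 8 with the replicate block. With 1 library left out it ran from 3 to 77. It was 21, 77 and 20 without shCDCA7 replicates 1, 2 and 3, and 4, 3 and 5 without control replicates 1, 2 and 3. The number called for the difference of the responses, 6, became 3 with no filter, 12 with total-read scaling and 13 with GC trends removed, and ran from 1 to 18 with 1 library left out. The cause was not tested. The 103 members called between the native lines stayed within 1.5 times under each alternative run.

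Same-numbered replicates did not deviate together, with correlations between -0.0761 and 0.0662 in KYSE180 and between -0.0744 and 0.0149 in KYSE150. Whether they shared a batch or preparation was not tested, and the labels do not say. For the named members in KYSE180, 105 alternative values kept their side of the threshold and 59 missed it in the same direction. In KYSE150 these numbers were 191 and 92, for the difference of the responses 70 and 25, and between the native lines 654 and 8, with 2 that newly passed it. None of these values reversed. Calls rest on 3 libraries a group, and 92 members in KYSE180 and 104 in KYSE150 had too few reads to be tested.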
